A study of Mus musculus with 22 samples.

Results

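The genes described here are 10 neighbours of Vax2 on mouse chromosome 6: Slc4a5, Mob1a, Dguok, Actg2, Stambp, Clec4f and Cd207 before Vax2 in gene order, and Atp6v1b1, Tex261 and Dysf after it. They were taken by gene symbol from the platform annotation with every probe set they have, 15 of the 22626 probe sets of the array, and 10 of 12393 genes. RNA of the whole eye was hybridised to Affymetrix arrays at embryonic ages E10.5, E12.5 and E16.5 (E, days of gestation) and postnatal ages P8 and P60 (P, days after birth). Of the 22 arrays, 11 carry the label wt (wild type) and 11 the label Vax2-/-, 3 of each label being from E10.5 and 2 of each from every later age. The labels give no strain, no sex, no treatment and no pooling, and do not say which part of Vax2 was removed or whether replicates are separate animals, so errors and p-values cover the spread of these samples alone, and that spread may be technical. The question is whether signals near the targeted locus differed with the genotype label, either at the locus itself or over a longer stretch of the chromosome.

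Vax2 encodes a homeodomain transcription factor of the ventral eye. A mouse line made by gene targeting carries, beside the altered gene, a stretch of linked chromosome that can descend from another strain than the control, and an altered locus can also change the reading of the genes next to it. Either leaves a signal tied to position along the chromosome rather than to a pathway. The neighbours themselves have unrelated roles: Atp6v1b1 encodes the B1 subunit of the vacuolar proton pump, known from acid-secreting cells of the kidney and the inner ear. Dysf encodes dysferlin, which takes part in resealing the muscle cell membrane. Slc4a5 encodes a sodium bicarbonate cotransporter, Cd207 langerin of Langerhans cells, Clec4f a lectin of liver macrophages and Actg2 an actin of smooth muscle. Tex261 belongs to the early secretory pathway, Stambp encodes an endosomal deubiquitinase, Mob1a an activator of the Hippo kinases and Dguok a mitochondrial deoxyguanosine kinase.

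In the order of RefSeq genes of the assembly GRCm38.p6, Cd207 is the protein-coding gene directly before Vax2 and Atp6v1b1 the one directly after it. Tex261 is protein-coding gene 3 after Vax2 and Dysf gene 7. On the other side Clec4f is gene 2 before Vax2, Stambp gene 3, Actg2 gene 4, Dguok gene 5, Mob1a gene 8 and Slc4a5 gene 10. The array files name no genome build, so positions are given as gene order, except for promoter sequences, which carry the build of their own table. Promoters, from 250 bases before to 50 bases after the start, were found in the RefSeq table for 9 of the 10 genes, and not for Actg2. These 9 genes have 10 promoters there, with a further one for Dysf at chr6:84019136-84019435, which is not shown. Of the 10, only that of Dguok held TAATTA, a homeodomain core motif that reads the same on both strands (capitals). It is shown together with promoters of the 3 neighbours with the largest average differences in size. Each is written 5′ to 3′ on the strand of its gene.
Atp6v1b1, chr6:83742767-83743066, + strand, GRCm38.p6: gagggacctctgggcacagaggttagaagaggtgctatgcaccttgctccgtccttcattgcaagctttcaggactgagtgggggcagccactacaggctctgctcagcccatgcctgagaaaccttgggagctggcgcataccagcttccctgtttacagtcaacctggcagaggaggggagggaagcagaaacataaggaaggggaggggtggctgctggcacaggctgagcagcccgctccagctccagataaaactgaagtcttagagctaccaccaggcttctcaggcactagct
Dysf, chr6:84008348-84008647, + strand, GRCm38.p6: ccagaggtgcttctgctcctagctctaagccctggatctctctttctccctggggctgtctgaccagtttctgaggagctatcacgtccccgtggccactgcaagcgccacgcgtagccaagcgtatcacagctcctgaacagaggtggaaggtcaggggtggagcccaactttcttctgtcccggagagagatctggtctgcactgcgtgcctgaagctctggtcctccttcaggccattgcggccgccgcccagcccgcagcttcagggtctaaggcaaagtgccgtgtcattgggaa
Cd207, chr6:83677808-83678107, - strand, GRCm38.p6: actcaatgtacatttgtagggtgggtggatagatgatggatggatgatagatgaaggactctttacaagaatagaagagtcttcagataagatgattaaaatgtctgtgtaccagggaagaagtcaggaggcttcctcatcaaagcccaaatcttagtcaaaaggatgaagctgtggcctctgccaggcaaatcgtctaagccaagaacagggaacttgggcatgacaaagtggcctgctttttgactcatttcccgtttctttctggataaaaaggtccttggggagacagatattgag
Dguok, chr6:83506920-83507219, - strand, GRCm38.p6: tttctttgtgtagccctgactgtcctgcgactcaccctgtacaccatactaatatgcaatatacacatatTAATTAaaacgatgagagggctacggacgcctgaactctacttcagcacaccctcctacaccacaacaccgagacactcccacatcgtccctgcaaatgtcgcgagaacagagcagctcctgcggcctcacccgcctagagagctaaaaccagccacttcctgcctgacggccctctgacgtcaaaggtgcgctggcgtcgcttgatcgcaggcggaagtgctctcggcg
TAATTA was found in 5.29% of the 32851 promoters of this length in the table. The letters were not in the windows of Atp6v1b1, Dysf or Cd207, which describes these windows only. The share of G and C was 57.3% for Atp6v1b1, 60% for the Dysf promoter shown (61% for its other one) and 43.3% for Cd207.

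The neighbours were proposed with their differences between genotypes already known, so the differences are given as a description, with the standard error of a limma fit across all probe sets and with no test. All are log2 values of arrays labelled Vax2-/- minus arrays labelled wt within an age. Levels are not compared between ages, because the array medians lay between 5.28 and 9.1. Within an age they were close, as from 5.28 to 5.35 at E12.5. The arrays thus appear to have been normalized within each age, a setting that the sources used here do not give. Markers of the retinal pigment epithelium checked the tissue from E12.5 on, where the median of 9 such genes lay between percentiles 80.2 and 97.4 of each array. At E10.5 it lay between 23.6 and 30.5, so these markers do not show eye tissue in the 6 arrays of that age. The 1 probe set for Vax2 was higher in the arrays labelled Vax2-/- at 4 ages, by 0.29 to 1.84, and lower at E12.5, at -0.71. The signal of the targeted gene thus does not check the labels, and each direction below rests on them.

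Atp6v1b1, the next gene after Vax2, was higher in the arrays labelled Vax2-/- at every age on average, and by most at E16.5. At E16.5 its log2 signal was 5.54 and 5.17 in the wt arrays against 6.65 and 6.81 in the Vax2-/- arrays. The groups were separated by 1.11, and the difference was 1.37 ± 0.13 (SE), a 2.59-fold higher signal. At E10.5 the 3 wt arrays read 3.99, 3.86 and 3.85 and the 3 Vax2-/- arrays 4.26, 4.33 and 4.30. These groups did not overlap either, and the difference was 0.40 ± 0.11, or 1.32-fold. E12.5 had 3.33 and 3.41 in wt and 3.46 and 3.77 in Vax2-/-, a difference of 0.25 ± 0.13 with the nearest arrays 0.052 apart. At P60 the wt arrays had 4.69 and 4.58 and the others 5.06 and 4.83, a difference of 0.31 ± 0.13. P8 was the age at which the groups overlapped, with 4.94 and 4.98 in wt and 5.24 and 4.92 in Vax2-/- (0.12 ± 0.13).

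Averaged over the 5 ages the difference for Atp6v1b1 was 0.49 ± 0.06, 1.40-fold and the 23rd largest of 22626 in size. Without E16.5 it was 0.27, so that 1 age carried a large part of the average. Leaving out 1 array at a time kept the E16.5 difference between 1.19 and 1.56 and the average between 0.45 and 0.53, while that of P8 ranged from -0.043 (without Vax2-/- replicate 1) to 0.28 (without Vax2-/- replicate 2). The signal was dim throughout: in wt arrays the probe set lay between percentiles 8.05 and 32.4 of its array, and folds of dim signals depend on the background correction. Of the sex-linked genes, Xist (active in females) and Eif2s3y (on the Y chromosome) differed between the E16.5 arrays. Xist read 12.1 and 11.7 in wt and 3.26 and 11.6 in Vax2-/-, and Eif2s3y 3.30 and 12.1 in wt and 12.6 and 11.9 in Vax2-/-. In replicate 2 of both genotypes Xist and Eif2s3y were alike and both high, as in RNA from animals of both sexes. Arrays of other ages had this too, such as E10.5 wt replicate 2 (Xist 10.9, Eif2s3y 11.6). The labels state no pooling. Between the 2 arrays of E16.5 replicate 2, 1 of each genotype, the difference in Atp6v1b1 was 1.64, and the part of sex in the E16.5 difference was not tested.

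Dysf, 7 coding genes after Vax2, was higher in every Vax2-/- array than in every wt array at all 5 ages. At E16.5 its log2 signal was 8.75 and 8.78 in wt against 9.11 and 9.32 in Vax2-/-, a difference of 0.45 ± 0.13, or 1.36-fold. At E12.5 the arrays read 5.22 and 4.89 against 5.64 and 5.31 (0.41 ± 0.13). E10.5 had 8.20, 8.51 and 8.23 in wt and 8.51, 8.76 and 8.76 in Vax2-/- (0.36 ± 0.11), where the highest wt and the lowest Vax2-/- array were only 5.1e-04 apart. The postnatal differences were smaller, and the probe set was dimmer there. In wt arrays it lay at percentiles 29.2 to 29.3 at P8 and 19.9 to 20.0 at P60. At the embryonic ages it lay between percentiles 42.8 and 49.4. The separation at P60 is a small shift of a dim signal whose SD was 0.0036 within each label. At P8 the values were 5.65 and 5.62 against 5.81 and 5.76 (0.15 ± 0.13), and at P60 they were 5.22 and 5.21 against 5.28 and 5.27 (0.061 ± 0.13). The average was 0.29 ± 0.06, 1.22-fold and the 93rd largest in size, and leaving out 1 array at a time kept it between 0.25 and 0.32. The 3 embryonic differences of Dysf were larger than both postnatal ones, and no difference between ages was tested.

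The sign was upward at all 5 ages in 4.5% of all probe sets and in 2 of the 15, those of Atp6v1b1 and Dysf, and downward at all 5 ages in 3.42% and in 2 of the 15, those of Cd207 and Dguok. Separation at 5 ages in the upward direction was reached by 0.0177% of all probe sets, that is by 4: those of Dysf, Ubxn1 on chromosome 19, Nsmf on chromosome 2 and Efnb1 on chromosome X. Of these the average was highest for Dysf, with 0.18 for Efnb1, 0.14 for Ubxn1 and 0.11 for Nsmf. Separation at 4 or more ages was reached upwards by 0.248% of probe sets and by 2 of the 15 of the neighbours, and downwards by 0.102% and by none of the 15. An average at or above that of Dysf was found in 0.217%. These shares are printed for scale, since the neighbours were proposed with this contrast known.

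Cd207, the gene directly before Vax2, was lower in the Vax2-/- arrays at E12.5 and E16.5. At E16.5 the wt arrays read 4.54 and 4.84 and the Vax2-/- arrays 4.11 and 4.30, a difference of -0.49 ± 0.14. At E12.5 the values were 2.67 and 2.75 against 2.34 and 2.26 (-0.41 ± 0.14). The groups did not overlap at these 2 ages. They overlapped at E10.5 (-0.081 ± 0.11), P8 (-0.079 ± 0.14) and P60 (-0.0093 ± 0.14). The average was -0.21 ± 0.06, the largest below 0 among the neighbours. This probe set lay between percentiles 8.43 and 26.6 of the wt arrays, so langerin was near the dim end at every age. Under quantile normalization the difference was -1.16 at E12.5 and -0.32 at E16.5.

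**Figure D1:**
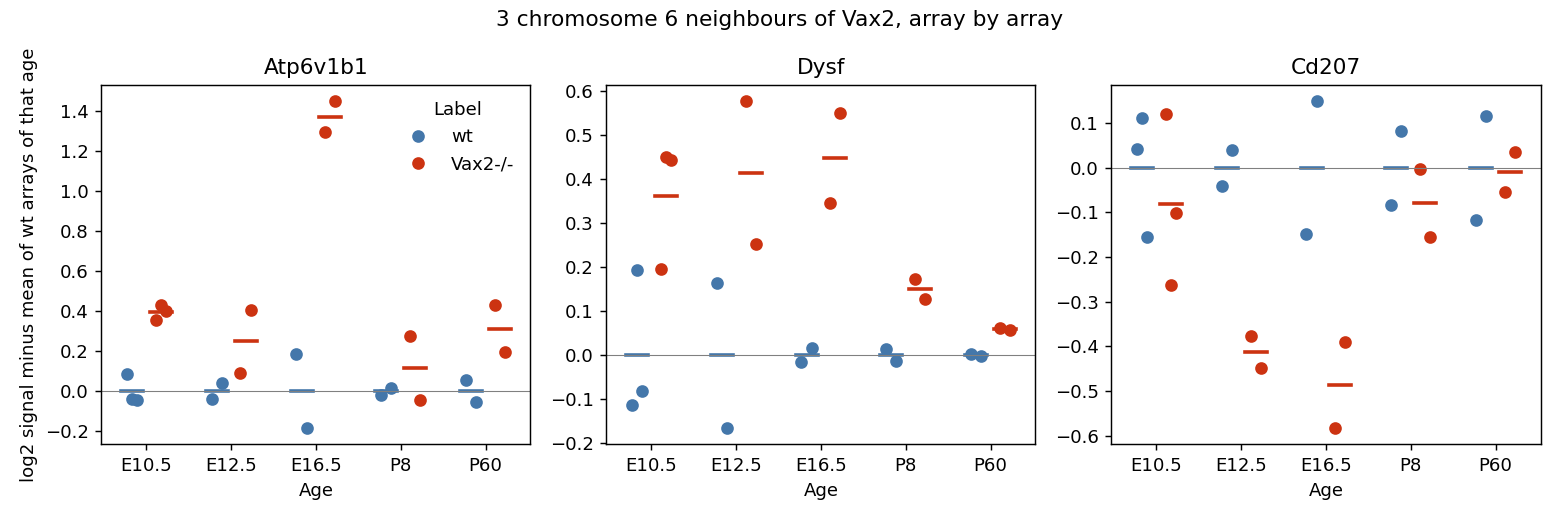
Log2 signal of Atp6v1b1, Dysf and Cd207 in each array, minus the mean of the wt arrays of the same age, by age (horizontal axis); points are arrays, bars are group means, and vertical scales differ between panels. The Vax2-/- arrays of Atp6v1b1 stand furthest from wt at E16.5 (mean 1.37), those of Dysf lie above wt at every age, and those of Cd207 lie below wt at E12.5 and E16.5.

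The other 7 neighbours showed smaller averages, between -0.086 for Dguok and 0.11 for a probe set of Stambp. Slc4a5, the farthest neighbour before Vax2, read 7.09, 7.43 and 6.93 in wt and 7.30, 7.70 and 7.56 in Vax2-/- at E10.5. The groups overlapped, while the Vax2-/- array was higher in each of the 3 pairs of one replicate number, and the difference was 0.37 ± 0.11 (± 0.088 with the replicate number as a block). At the other ages it lay between -0.040 and 0.098. Dguok was lower at all 5 ages by small amounts, from -0.025 at E10.5 to -0.14 at P8. Its groups were apart only at E16.5, with 9.71 and 9.80 in wt and 9.62 in both Vax2-/- arrays. Actg2 differed by 0.24 ± 0.20 at E12.5, from 2.20 and 2.18 to 2.49 and 2.37, at a signal between percentiles 6.45 and 8.38 of the wt arrays, and by 0.083 or less in size at the other ages. Under joint quantile normalization of all arrays the E12.5 difference was 0.71.

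Tex261, between Atp6v1b1 and Dysf in gene order, stood out at no age. Its 3 probe sets averaged -0.0083, 0.023 and 0.062, and the largest difference at a single age was 0.16. Mob1a was measured by 3 probe sets as well, which averaged -0.030, 0.0091 and 0.010. In Stambp the pair of probe sets disagreed at E10.5, at -0.29 ± 0.16 and 0.055 ± 0.12, and both were higher at E12.5, at 0.29 ± 0.20 and 0.39 ± 0.15. The second of these read 3.42 and 3.63 in wt and 3.64 and 4.2 in Vax2-/-, so its groups were apart by a narrow margin. Clec4f was higher at E12.5 (0.27 ± 0.13) and lower at P8 (-0.16 ± 0.13), with no overlap at either age, and averaged 0.0056. Under quantile normalization its E12.5 difference was 0.79.

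As a list, the 15 probe sets had a median average difference of 0.010, against 0.0043 for all probe sets, and a median size of 0.041 against 0.037. At E10.5, 2 of the 15 were separated upwards and 0 downwards, where 5.8% and 2.99% of all probe sets were. At E12.5, 6 of the 15 were separated upwards and 1 downwards, where 15.7% and 12.7% of all probe sets were. At E16.5 it was 2 upwards and 4 downwards, where 16.4% and 15.2% were. At P8 it was 3 and 2, where 14.8% and 13% were, and at P60 6 and 0, where 15.1% and 18.5% were. At 3 or more ages 2.23% of all probe sets were separated upwards. In the limma fit with Benjamini-Hochberg adjustment at 0.05, Atp6v1b1 was the only neighbour called, at E16.5 and in the average of ages. Because the neighbours were proposed with this contrast known, the call is part of the description and no independent support, in this or any other setting. The background was 0.00442% of probe sets at E16.5 and 0.0177% in the average, the latter being 4 probe sets, of Vax2, Atp6v1b1, Cyp26a1 and Smoc1. At E10.5 0.00442% were called, at E12.5 0.164%, at P8 0% and at P60 0.00884%, with 0 neighbours at each. Under quantile normalization 2 neighbour probe sets were called at E12.5, those of Clec4f and Cd207, among 1009 in all. The call at E16.5 was also made with the replicate number as a block, and not when that age was fitted alone or when dim probe sets were left out, a filter that removed Atp6v1b1.

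**Figure D2:**
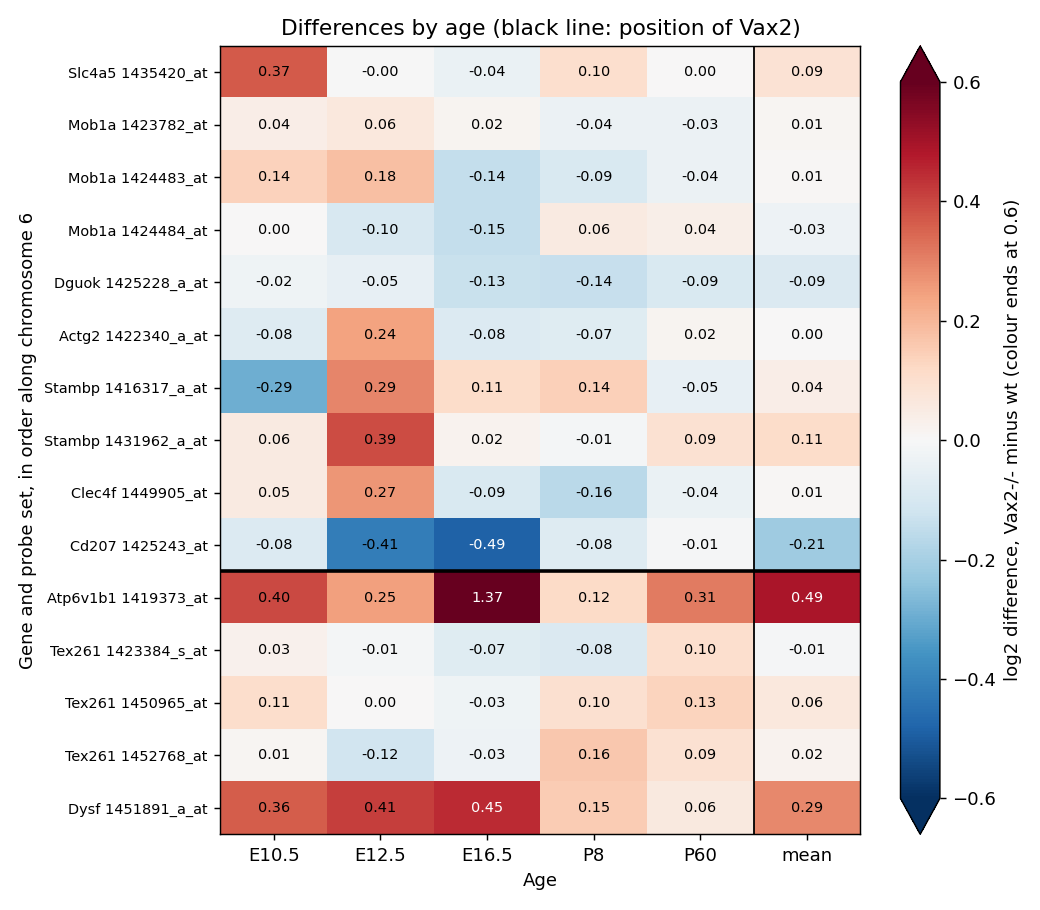
Log2 difference (Vax2-/- minus wt) of all 15 probe sets of the 10 neighbours, in order along chromosome 6 from top to bottom, at each of the 5 ages and averaged; colour ends at 0.6 in size and the black horizontal line marks the place of Vax2. Atp6v1b1 directly below the line and Dysf at the bottom are higher in every column, while the 3 probe sets of Tex261 between them stay within 0.16 of 0.

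The measured genes lying among these neighbours but outside the list showed no such offset. These were Mthfd2, Nagk, Paip2b and Zfp638, with 6 probe sets whose averages lay between -0.028 and 0.062. Spr, the next measured gene beyond Dysf, averaged -0.072 ± 0.04. Nagk, an N-acetylglucosamine kinase, averaged -0.023 ± 0.05, and Zfp638, next before Dysf, averaged -0.028 ± 0.04 and 0.0051 ± 0.07. Elevated and level genes thus alternated on the Atp6v1b1 side: Atp6v1b1 high, then Tex261, Nagk, Paip2b and Zfp638 near 0, then Dysf high.

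A wider stretch was described without the 10 neighbours and Vax2. The 25 nearest other measured genes on each side (50 genes, 75 probe sets) had a median size of the average difference of 0.044, against 0.038 for the 26th to 100th genes on each side, 0.042 for the rest of chromosome 6 and 0.037 for all other chromosomes. The sign was the same at all 5 ages in 10 of the 75 (13.3%, 95% exact binomial interval 6.58 to 23.2%, which treats probe sets as independent), where 7.92% of all probe sets had this. None of the 75 was called in any of the 6 contrasts, with a lowest limma adjusted p of 0.0693. The 3 genes with the largest averages were Tprkb, a partner of a kinase of the tRNA-modifying KEOPS complex, at 0.27 ± 0.07 (limma adjusted p = 0.546), Figla, an oocyte transcription factor, at 0.24 ± 0.05 (adjusted p = 0.389), and Reg2, a regenerating protein of the pancreas, at 0.20 ± 0.09 (adjusted p = 0.999). Tprkb and Figla lie 18 and 20 measured genes after Vax2 and Reg2 32 before it. The other 2 probe sets of Tprkb averaged 0.16 and 0.13, so all 3 were above 0.

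Separation at 4 or more ages was then counted along the chromosome, a count chosen after values had been seen. Among the first 100 measured genes after Vax2, 6 of 173 probe sets of genes outside the list (3.47%) were separated upwards at 4 or more ages and 0 downwards. On the other side it was 0 of 143 upwards and 0 downwards. Of all 22626 probe sets 0.248% were separated upwards at 4 or more ages and 0.102% downwards. At such shares a count of 0 among 143 is unremarkable. Farther out it was 0 of 458 upwards and 2 downwards after Vax2, and 1 of 362 upwards and 0 downwards before it. The 6 probe sets belong to Tprkb, Figla, Anxa4, Aak1 (2 probe sets) and Fbln2, and with Atp6v1b1 and Dysf all 8 such probe sets within 100 measured genes of Vax2 lay after it. The difference between the sides was not tested, and probe sets of a gene share its RNA.

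Anxa4, a calcium-dependent membrane-binding annexin 33 measured genes after Vax2, had a larger average than Atp6v1b1. At E16.5 its probe set read 8.58 and 7.15 in wt and 9.28 and 9.06 in Vax2-/-. At E10.5 it read 6.96, 7.28 and 5.99 in wt and 7.85, 7.72 and 7.82 in Vax2-/-. The average was 0.72 ± 0.17 (limma adjusted p = 0.456), which did not pass, and its 2 wt arrays at E16.5 lay further apart than its Vax2-/- arrays. A second probe set of Anxa4 gave 0.29, 0.29 and 0.30 at the embryonic ages but -0.31 at P8 and -0.096 at P60. Aak1, a kinase of clathrin adaptors and the next measured gene, was higher by 0.17 ± 0.04 and 0.17 ± 0.04 in the pair of probe sets separated at 4 ages (adjusted p = 0.657 and 0.389), while its other 3 averaged between -0.016 and -0.012. Fbln2, an extracellular matrix protein, averaged 0.41 ± 0.11 (adjusted p = 0.657), 86 measured genes after Vax2. Vmn1r51, a vomeronasal receptor gene, averaged 0.58 at place 75 without being separated at 4 ages. Probe sequences were not at hand. Whether the genotypes differ in sequence under any of these probes, for one where probe sets of a gene disagree, was thus not looked at.

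**Figure D3:**
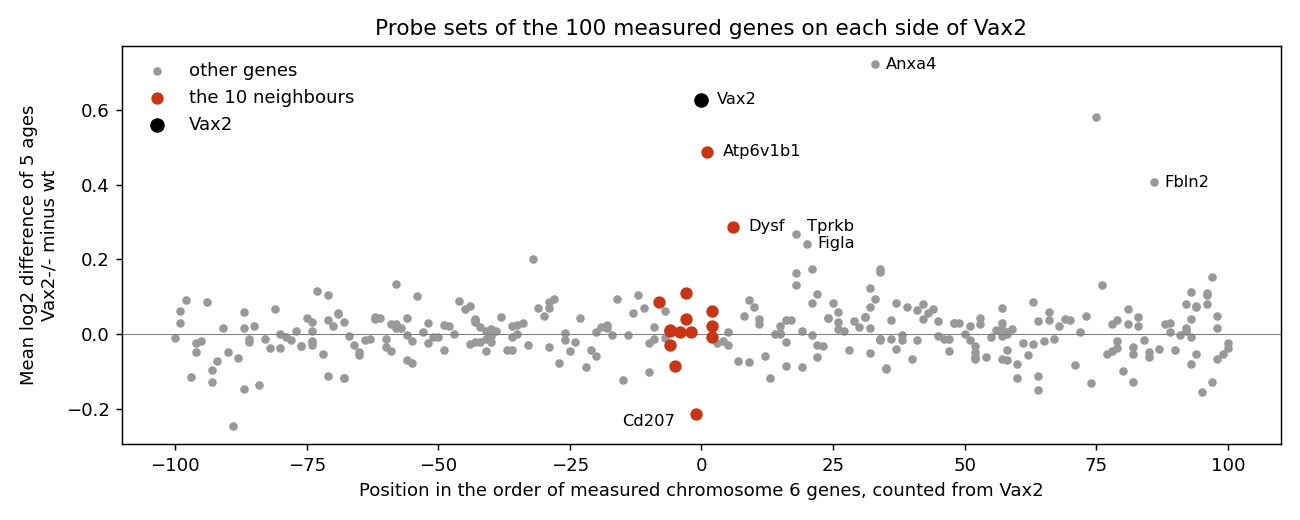
Average over the 5 ages of the log2 difference (Vax2-/- minus wt) for each probe set of the 100 measured genes before and after Vax2, by place in the gene order (horizontal axis, Vax2 at 0). Red points are the 10 neighbours and the black point is Vax2; Atp6v1b1, Dysf, Tprkb, Figla, Anxa4 and Fbln2 stand above the band on the right, while most probe sets lie near 0.

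Genes that work with the neighbours were taken from fixed lists to set the neighbours beside their pathways and cell types. The proton pump is built from many subunits, and 21 of 24 listed ones were measured by 41 probe sets. No probe set of them was called by limma in any of the 6 contrasts (1 had an unadjusted p under 0.05 in the average), and their median average difference was 0.017 against 0.0043 for all probe sets. At E10.5, where Atp6v1b1 differed by 0.40, 17 of the 21 subunits were higher, with a median of 0.063 and overlapping mean levels. Of all probe sets 57.3% were higher at that age, with a median of 0.016. Atp6v1b2, the B subunit found in most tissues, averaged 0.036, 0.027 and -0.024 in its 3 probe sets. At E16.5, where Atp6v1b1 was at 1.37, the brightest probe set of each other subunit lay between -0.24 and 0.41, the highest being Atp6v1c2, and Atp6v1b2 was at 0.086. Genes of the ciliary body and iris, which secretes the fluid of the eye, had 0 of 16 probe sets called in the average. Of these, 2 had an unadjusted limma p under 0.05, and the median was -0.047. At E16.5 the median of this list was 0.10 against 2.5e-04 for all probe sets, with 5 genes higher and 4 lower. Its mean levels overlapped, at 9.16 to 9.21 in wt and 9.09 to 9.37 in Vax2-/-. At that age 2 of the 16 probe sets had an unadjusted limma p under 0.05, and the list's part was not tested. Atp6v0a1 had the lowest p of the pump list in the average, at 0.12 ± 0.05 (limma adjusted p = 0.999).

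Skeletal muscle genes were set beside Dysf, because muscle attached to the eye expresses it. All 16 listed genes were measured. In the average 13 of the 16 were higher, with a median of 0.10 against 0.0043 for all probe sets, the largest median among the lists set beside a neighbour. Of their 21 probe sets 0 were called by limma in the average (2 with an unadjusted p under 0.05), and at E12.5 1 rose, that of Acta1 at 1.21 ± 0.21 (adjusted p = 0.0288), with 12 of the 16 genes higher. The mean log2 level of the 16 at E12.5 was 3.84 to 4.46 in wt and 4.58 to 4.78 in Vax2-/-, so this list moved with Dysf at that age, and its part in the difference was not tested. At E16.5, where Dysf differed by 0.45, the list's levels were 10.83 to 11.03 in wt and 10.74 to 11.11 in Vax2-/- and overlapped, with a difference of -0.0041. At P8, where Dysf differed by 0.15, 14 of the 16 genes were higher and the list differed by 0.15. Its levels were 9.94 to 10.106 in wt and 10.103 to 10.25 in Vax2-/-, so they overlapped narrowly. The list was thus higher with Dysf on average there too, and its part was not tested. At E10.5 the list differed by 0.061 and at P60 by -0.15. At P60 15 of the 16 genes were lower, while Dysf was higher by 0.061. In the wt arrays Dysf lay above the mean level of the list at E10.5, at 8.20 to 8.51 against 6.05 to 6.21. It also did at E12.5, at 4.89 to 5.22 against 3.84 to 4.46. At E16.5 Dysf lay below the list, at 8.75 to 8.78 against 10.83 to 11.03. The same held at P8 (5.62 to 5.65 against 9.94 to 10.106) and P60 (5.21 to 5.22 against 9.75 to 10.03). How much of the Dysf signal came from muscle was not tested. In whole eyes more cells of a type and more RNA per cell cannot be told apart. In the average the membrane repair genes had a median of 0.0030 over 10 measured genes and 0 calls. Of their 19 probe sets 2 had an unadjusted limma p under 0.05. Among them Cav3 was at 0.13 ± 0.06 and Anxa2 at -0.11 ± 0.03 in 1 of its probe sets (limma adjusted p = 0.999 and 0.808). At E12.5, where Dysf differed by 0.41, their mean levels were 6.97 to 7.05 in wt and 7.09 to 7.12 in Vax2-/-. These did not overlap, with 5 genes higher and 5 lower. At P8 the levels went against Dysf without overlap, at 8.76 to 8.78 in wt and 8.71 to 8.74 in Vax2-/-. There 8 of the 10 genes were lower, and the part of this list was not tested at either age.

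Langerhans cell and macrophage genes were set beside Cd207 and Clec4f. In the average 0 of 25 probe sets of 18 genes were called by limma (0 with an unadjusted p under 0.05), and the median was -0.0025. At E16.5, where Cd207 differed by -0.49, the mean level of the list was 7.93 to 7.96 in wt and 7.94 to 7.95 in Vax2-/-, and at E12.5 4.03 to 4.07 and 3.99 to 4.13, with overlap at both ages. At P8, where Clec4f differed by -0.16, the list was lower as well, at 6.61 to 6.66 in wt and 6.42 to 6.60 in Vax2-/- without overlap, with 13 of 18 genes lower, and its part was not tested. For Actg2, the 10 smooth muscle genes had a median of -0.014 and 0 of 16 probe sets called (1 with an unadjusted p under 0.05). At E12.5 their mean level was 4.75 to 4.90 in wt and 4.94 to 5.05 in Vax2-/-, so it moved with the difference in Actg2 at that age, and its part was not tested.

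The lists for the remaining neighbours held no limma call in the average either. Their medians were 0.024 for 6 measured bicarbonate transporters beside Slc4a5, 0.041 for 9 genes of endosomal deubiquitination beside Stambp, 0.0039 for 15 Hippo pathway genes beside Mob1a, 0.031 for 9 genes of mitochondrial nucleotide salvage beside Dguok and 0.0055 for 13 genes of the early secretory pathway beside Tex261. At E10.5, where Slc4a5 differed by 0.37, all 6 transporters were higher, with a median of 0.14, and 57.3% of all probe sets were higher. The mean levels of the transporters were 8.68 to 8.74 in wt and 8.75 to 8.996 in Vax2-/- and did not overlap. The transporter list moved with Slc4a5 at that age and against it at P8, and its part was not tested. At P8 Slc4a5 differed by 0.098, while all 6 transporters were lower, with a median of -0.093. Their mean levels there were 7.80 to 7.83 in wt and 7.61 to 7.74 in Vax2-/- and did not overlap. At E12.5, where Stambp was higher, 8 of the 9 deubiquitination genes were higher too, with a median of 0.11 and mean levels that overlapped. In the salvage list, 3 of 16 probe sets had an unadjusted p under 0.05, those of Mpv17 at 0.12 ± 0.04, Tk2 at 0.10 ± 0.04 and Dck at -0.14 ± 0.06. The secretory list had 1 of 23 and the other 3 lists had 0.

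**Figure D4:**
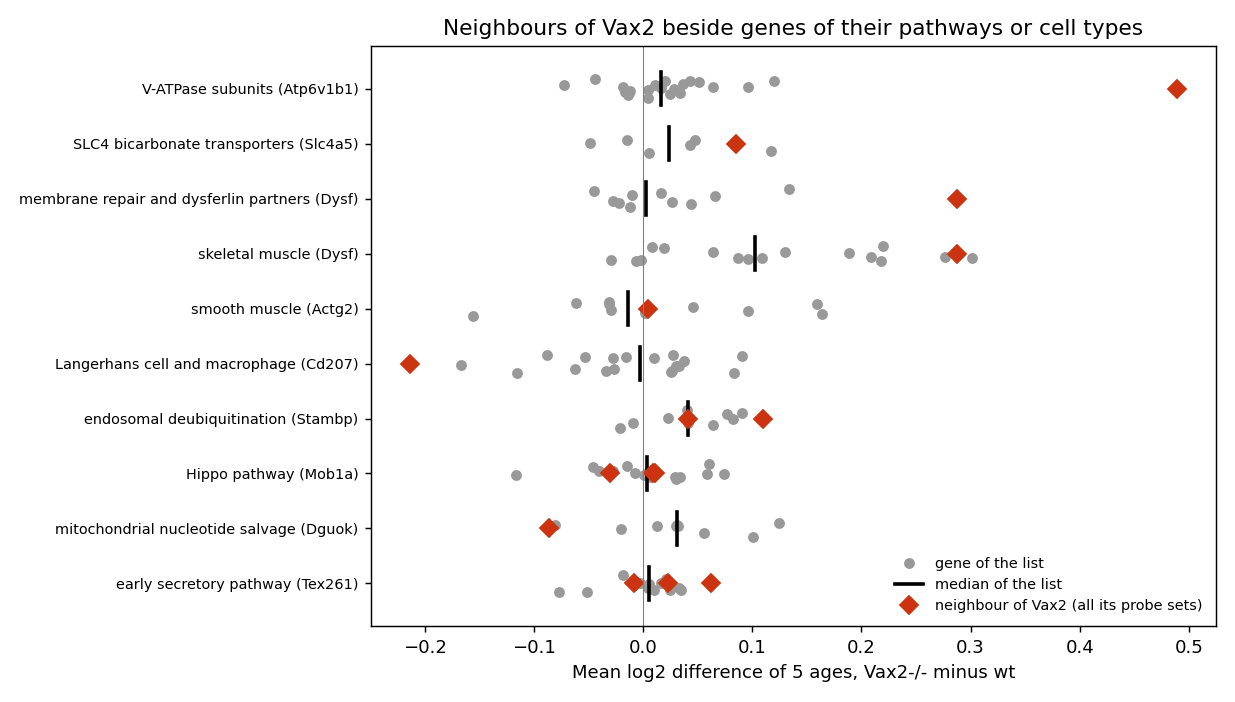
Average over the 5 ages of the log2 difference (Vax2-/- minus wt) for the brightest probe set of each gene of 10 fixed lists (grey), the median of each list (black bar), and all probe sets of the neighbour set beside it (red diamonds). Atp6v1b1 at 0.49 lies to the right of all 21 measured subunits of its pump, and Dysf at 0.29 lies among the highest skeletal muscle genes.

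Across the 22 arrays, after centring each age on its mean, the probe sets most like Atp6v1b1 were those of Ubxn1 on chromosome 19 (Pearson r = 0.85), Klhdc3 on chromosome 17 (0.78) and Timm8a2 on chromosome 14 (0.78). Those most like Dysf were of Tmem175 on chromosome 5 (0.80) and of Acvr1 and Mapk8ip1 on chromosome 2 (0.79 and 0.78). Among the other neighbours, Dysf had the highest r with Atp6v1b1 (0.64) and Cd207 the lowest (-0.68). These values share the genotype contrast and the arrays, were picked as extremes from all probe sets or members, and are a description of likeness.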

How the data were processed

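Whole eyes of 5 ages were measured on 22 Affymetrix arrays. The deposited values are log2 signals that the authors made with RMA, per the submitters' processing notes; no version or setting is given in the sources used here, and the log2 scale was read from the range. From the 22690 probe sets, 64 array controls were left out, with no filter on dim probe sets. Symbols come from the platform annotation, updated by gene identifier through RefSeq (GRCm38.p6), and 20380 probe sets have 1 symbol.

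limma 3.58.1 in R 4.3.3 fitted 1 mean for each of 10 groups (12 residual degrees of freedom) with default eBayes, with Benjamini-Hochberg adjustment within each contrast over 22626 probe sets. The script was tested on simulated data. Members and lists were chosen with earlier results of these data known. Named were all members, list genes of lowest p, uncalled near genes with the largest averages, and the closest patterns. Same-numbered arrays deviated together (correlations 0.11 to 0.41), and the labels do not say that they are pairs. They were alike in Xist at P8 (3.46 and 3.22, then 11.31 and 11.30) and at P60 (11.07 and 11.10, then 3.87 and 3.56). They were unlike in Xist in E12.5 replicate 2 (7.54 and 2.68) and E16.5 replicate 1 (12.1 and 3.26). At E10.5 Eif2s3y was unlike in replicate 1 (2.73 and 11.7) and replicate 3 (11.7 and 3.89). The main fit, its errors and its calls did not use the replicate number, which entered only as a block in an alternative fit. There the error of the average was 0.035 for Dysf, against 0.058 in the main fit, and 0.057 for Atp6v1b1, against 0.058. Arrays limit precision by their number.

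Alternatives were a block, each age alone, a trended robust variance, quantile normalization, median centring, a dim filter, other widths, the brightest probe set and leaving out arrays.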

Additional observations from a re-analysis of the deposited data

Results flagged for a closer look

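Clec4f differed in opposite directions between ages with no overlap of the groups: its log2 difference at E12.5 was 0.27, that at E16.5 was -0.091, and P8 had -0.16. Under joint quantile normalization of all arrays these were 0.79, -0.062 and -0.17. The difference between these ages was not tested.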

How the results depend on the processing

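No called difference of a neighbour turned its sign in any setting. Of 1005 recomputed differences of the neighbours, 993 moved by no more than the replicate spread and 12 by more, 10 of them under joint quantile normalization of all arrays, which moved Cd207 at E12.5 from -0.41 to -1.16, Clec4f at that age from 0.27 to 0.79, Actg2 from 0.24 to 0.71 and Atp6v1b1 at E16.5 from 1.37 to 1.10. The other 2 were averages of Atp6v1b1 without E16.5 (0.27) or without P8 (0.58), chosen after seeing the data. The counts of called probe sets in the whole fit moved more, and the cause was not tested. With each age fitted alone, which gives no average, every age had 0 calls. A trended and robust variance gave 24 for E12.5, 3 for E16.5 and 6 for P60. Quantile normalization gave 1009 at E12.5, 2 of them of neighbours, and 14 in the average. Without dim probe sets E10.5 had 0, E12.5 had 10, E16.5 had 2 and the average had 2. The replicate block gave 1 at P60, moved no other count by over 1.5 times, and left Atp6v1b1 as the 1 neighbour called. Leaving out 1 array gave E10.5 1 to 2 calls, E12.5 115 to 242, E16.5 1 to 7, P8 0 to 140, P60 0 to 4 and the average 3 to 42. The largest were 140 without P8 wt replicate 2, 133 without P8 Vax2-/- replicate 1 (42 in the average) and 242 without E12.5 Vax2-/- replicate 2. In the chromosome 6 segment of near genes the share with the same sign at all ages stayed within its interval in all settings, between 6.67% and 17.3%. With 2 arrays a group at most ages, and several neighbours dim, small differences were not detectable.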
